A study of Homo sapiens with 8 samples.

Results

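The 54 genes described here are genes of G2 phase and mitosis, chosen as a list by their known roles, among 11963 genes that the array annotation names in the series. A probe set was taken for a gene when the annotation gave it that gene's symbol alone, and the brightest probe set stood for a gene with several. The 12 h array carried 46 of the 54 genes, and the 6 h array, a larger design, carried all 54. The 8 genes that the 12 h array did not name were CCNB1, FOXM1, MELK, KIF14, CENPA, DLGAP5, NCAPH and HMGB2.

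Every sample was total RNA of MRC5, an established line of normal human lung fibroblasts with a limited lifespan. Treated cells received 10 µM 8-oxoguanine, the free base of oxidised guanine, and mock cells received the solvent. There was 1 array per treatment at 6 h, and there were 3 arrays per treatment at 12 h. The labels call the 12 h replicates technical, by extract, and no label ties them to separate cultures. The p-values therefore speak to variation among extracts, possibly technical variation alone. Of 10 fibroblast markers on the 12 h array, all 10 had signals above 93.9 on every array, the 40th percentile of all probe sets. Of 6 epithelial markers, EPCAM and CDH1 were below it on every array and the other 4, KRT8, KRT18, KRT19 and SFTPC, were above it on every array. CDH5, VWF and KDR of 4 endothelial markers and PTPRC and CD14 of 5 blood markers were below it on every array. KRT19, also found in epithelium, fell at 12 h (log2 fold change -1.27, SE 0.17), while KRT8 (0.49, SE 0.19) and KRT18 (0.12, SE 0.06) were higher on every treated array but did not pass. S100A4 fell and LUM rose among the fibroblast markers. The summed signal of each of these 4 lists overlapped between treated and mock arrays, for fibroblast markers at 72147 to 86453 and 73478 to 88858. The part of these markers in the results was not tested.

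Entry into mitosis is driven by cyclin-dependent kinase 1 bound to A- and B-type cyclins, which accumulate through S and G2 phase. The spindle checkpoint then holds the anaphase-promoting complex in check until every kinetochore has attached, after which securin and cyclin B are destroyed and the cell divides. Transcripts of these proteins are made mainly in S, G2 and M phase with B-MYB and FOXM1 as activators, and are kept low in resting fibroblasts by the DREAM complex of pocket proteins and MuvB.

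At 12 h many mitosis and G2 genes were lower in treated cells. Of 46 genes on the array, 24 fell, none rose and 22 did not pass (limma moderated test over all 8746 probe sets, Benjamini-Hochberg adjusted p below 0.05, two-sided). Over all probe sets 6.35% passed, 3.22% lower and 3.12% higher, and over all 7713 named genes 3.25% fell and 3.09% rose. Among genes at or above the signal limit of 93.9, where 43 of the 46 lay, 5.18% fell. The median log2 fold change of the 46 genes was -0.58, against 0.01 over all named genes, and 41 of the 46 values were below 0. All 3 treated arrays lay below all 3 mock arrays at 31 of the 46 genes, compared with 12.2% of named genes, and above them at 1 gene, AURKA, compared with 12.6%. At an unadjusted p below 0.05 in the limma test there were 32 lower genes and 2 higher ones, BUB3 and AURKA. Of all 7713 named genes, 1508 were at an unadjusted p below 0.05, 738 of them lower. Among the 4670 named genes at or above the signal limit, 644 were lower at this p.

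The mean log2 signal over the 46 genes was 8.31, 8.34 and 8.25 on treated arrays 1, 2 and 3 and 8.87, 8.79 and 8.81 on mock arrays 1, 2 and 3, so the groups did not overlap. Over all 7713 named genes the treated arrays averaged 7.24, 7.23 and 7.30, overlapping with the mock arrays at 7.21, 7.29 and 7.24. The ratio of 3' to 5' actin control signals, a measure of RNA integrity, ran from 0.999 to 1.07 in the treated group and from 0.889 to 0.995 in the mock group. The same ratio for GAPDH overlapped, at 0.802 to 0.843 in the treated and 0.779 to 0.826 in the mock group. The part of RNA integrity in the result was not tested. In RNA of whole cultures, fewer cells in G2 and mitosis and less of these transcripts per cell cannot be told apart. The count of 24 became 14 without treated replicate 1 and 14 without treated replicate 2, and 14 to 19 over all arrays left out in turn. Over all probe sets 1.43% to 2.45% were lower in these fits. The count became 3 when the variance was not allowed to vary with signal, beside 0.343% lower over all probe sets. It became 23 of 43 when probe sets under the signal limit were left out as well, beside 4.50% lower among all probe sets kept. This setting was added after seeing the data. Leaving out the probe sets under the limit alone gave 25 of 43, beside 6.65% lower among all probe sets kept.

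**Figure D1:**
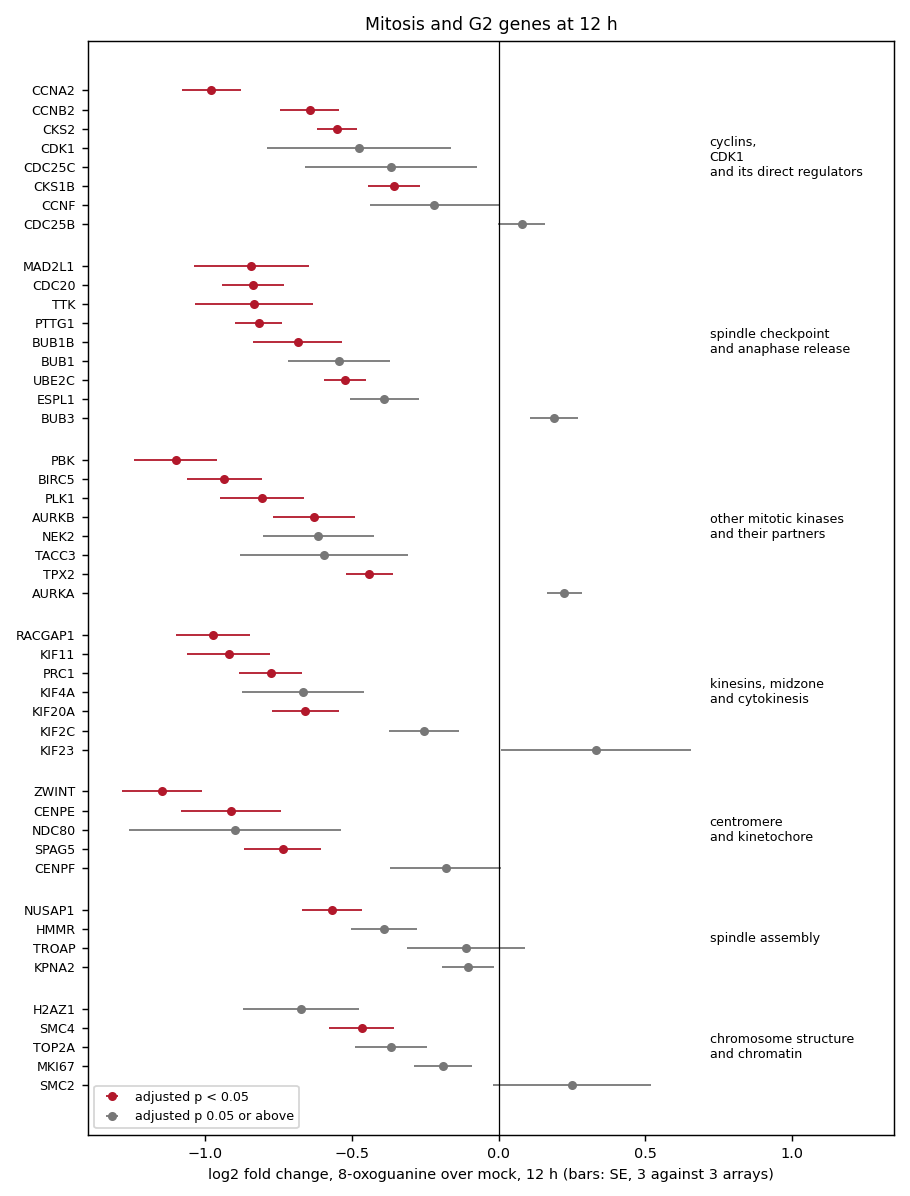
Log2 fold change of 8-oxoguanine over mock at 12 h for the 46 genes on the array, grouped by role, with the standard error from 3 against 3 arrays as bars. The 24 genes in red, with adjusted p below 0.05, all lie left of 0, and 5 genes lie right of it.

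**Figure D2:**
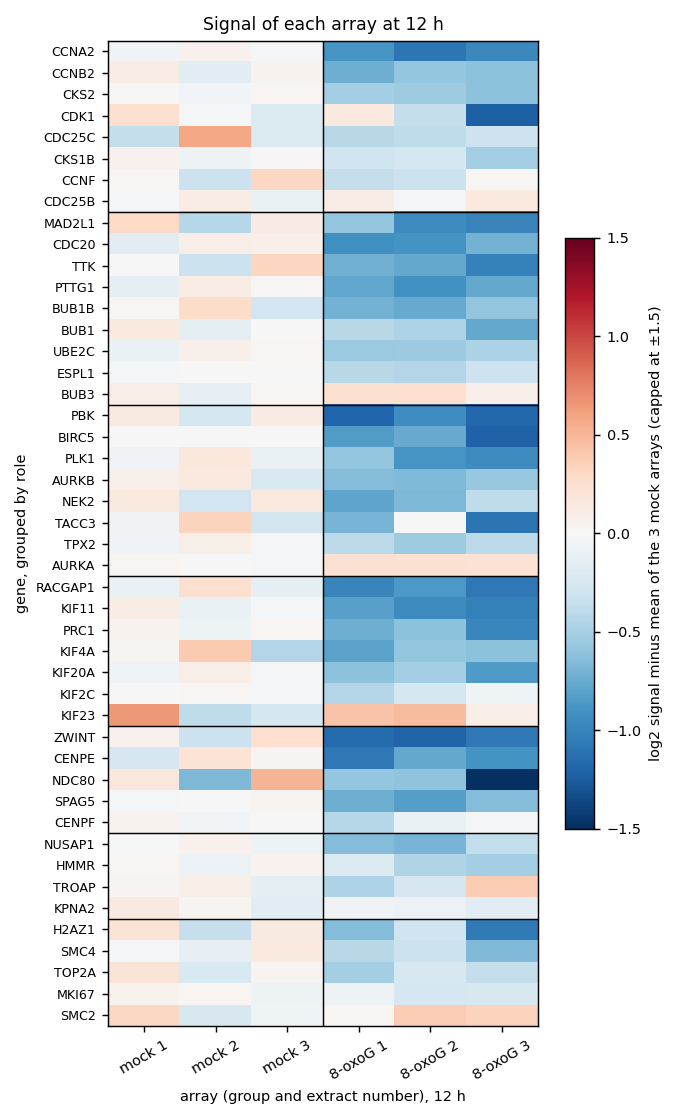
Log2 signal of each gene on each 12 h array, minus the mean of the 3 mock arrays (blue lower, red higher). Most rows are blue on all 3 treated arrays, and AURKA, BUB3, KIF23 and SMC2 lie above the mock mean on all 3.

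Promoter sequence was a feature that the choice of genes did not use. RefSeq windows from 250 bases before to 50 after the annotated gene start (GRCh38.p14) were matched for 43 of the 54 genes by symbol, in 55 windows. The windows were searched on both strands for CHR letters, the cell cycle gene homology region bound by MuvB complexes (TTTGAA or TTCGAA), and for the CCAAT box bound by NF-Y (CCAAT). These motifs can share a base or more where they adjoin. CHR letters stood in the windows of 32 of 43 genes (74.4%), against 19.5% of all 27305 genes with windows. CCAAT stood in those of 34 of 43 (79.1%), against 39.7%, and both stood in those of 27 (62.8%), against 7.85%. By window the shares were 63.6% against 16.4% of all 35116 windows for CHR letters and 72.7% against 34.6% for CCAAT.

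The matches were also placed alike. CHR letters within the last 50 bases before the start, with CCAAT somewhere upstream of them, were found for 15 of 43 genes (34.9%) and for 0.992% of all genes; this distance was chosen after the positions were seen. Of these 15, 7 fell at 12 h, 7 did not pass and CENPA was not on the 12 h array. The 14 measured had a median log2 fold change of -0.51, and 23 measured genes without the arrangement had -0.61 with 11 lower. The 100 bases before the start are shown for 8 of the 15, 6 that fell at 12 h and 2 that did not pass, with CHR and CCAAT letters of either strand in capitals.
CCNB2, chr15:59105046-59105145, plus strand: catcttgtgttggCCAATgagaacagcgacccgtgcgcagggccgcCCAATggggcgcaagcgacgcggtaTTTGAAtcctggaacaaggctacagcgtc
PLK1, chr16:23678789-23678888, plus strand: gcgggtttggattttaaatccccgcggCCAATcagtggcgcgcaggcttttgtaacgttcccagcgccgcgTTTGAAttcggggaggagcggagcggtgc
PRC1, chr15:90994536-90994635, minus strand: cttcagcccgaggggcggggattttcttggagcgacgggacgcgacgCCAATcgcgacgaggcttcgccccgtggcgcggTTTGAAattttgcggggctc
KIF11, chr10:92593030-92593129, plus strand: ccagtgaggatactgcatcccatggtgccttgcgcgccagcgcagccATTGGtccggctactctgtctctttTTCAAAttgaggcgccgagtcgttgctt
CKS2, chr9:89311095-89311194, plus strand: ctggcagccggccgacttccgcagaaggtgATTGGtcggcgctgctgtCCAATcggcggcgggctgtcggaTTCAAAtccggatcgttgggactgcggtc
ZWINT, chr10:56361260-56361359, minus strand: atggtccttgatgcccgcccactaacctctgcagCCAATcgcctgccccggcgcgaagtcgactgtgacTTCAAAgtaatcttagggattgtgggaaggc
ESPL1, chr12:53268199-53268298, plus strand: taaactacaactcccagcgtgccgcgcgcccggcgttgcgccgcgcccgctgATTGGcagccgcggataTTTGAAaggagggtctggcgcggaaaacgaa
CDC25B, chr20:3796210-3796309, plus strand: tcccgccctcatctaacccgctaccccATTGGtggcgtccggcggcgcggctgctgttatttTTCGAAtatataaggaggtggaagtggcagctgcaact

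In CCNB2, PLK1 and CKS2 the CHR letters began 29 bases before the start, and in PRC1, KIF11 and ZWINT 20, 28 and 31 bases before it. In the other window of ZWINT they began 17 bases before the start. In these 6 genes, 18 to 39 bases separated the CHR letters from the nearest CCAAT letters upstream. ESPL1 and CDC25B carried the same arrangement, with log2 fold changes of -0.39 and 0.08 that did not pass. Of the genes measured at 12 h with windows, the 29 with CHR letters had a median log2 fold change of -0.54 with 13 lower, and the 8 without had -0.64 with 5 lower. CCNA2, PTTG1, KIF20A, AURKB and CENPE fell and had no CHR letters in their windows. A match is a run of letters and not a measured binding site.

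**Figure D3:**
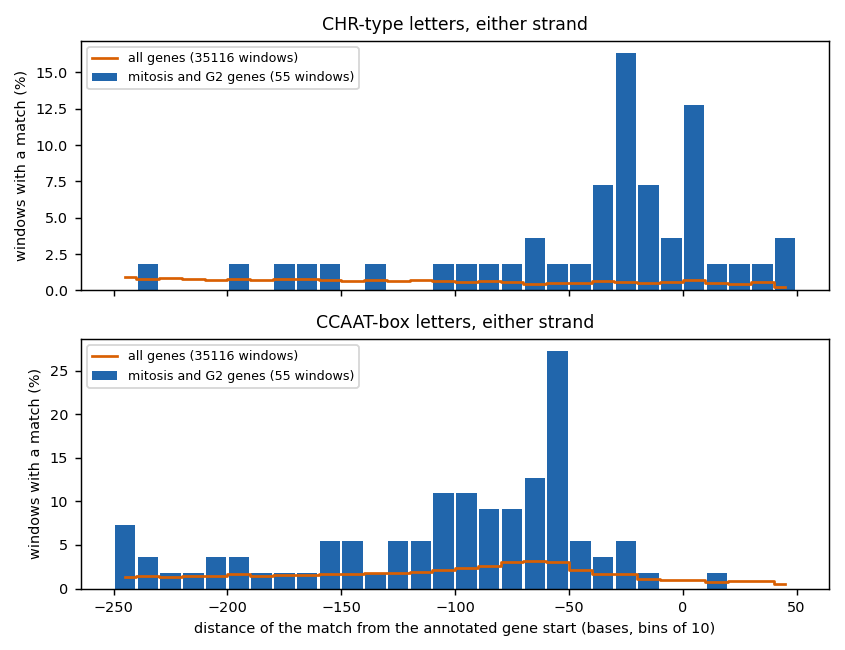
Share of promoter windows with a match, by distance from the annotated gene start in bins of 10 bases, for the mitosis and G2 genes (bars, 55 windows) and all genes (line, 35116 windows). CHR letters are most frequent at 30 to 21 bases before the start, in 16.4% of the genes' windows against 0.601% of all windows, and CCAAT at 60 to 51 bases before it, in 27.3% against 3.00%.

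Among the cyclins, CDK1 and its direct regulators, 4 of 8 genes measured at 12 h fell and 4 did not pass. CCNA2, which encodes cyclin A2, had signals of 270, 236 and 255 on treated arrays 1, 2 and 3 and 483, 523 and 492 on mock arrays 1, 2 and 3. The groups were far apart, and the log2 fold change was -0.98 (SE 0.10, limma adjusted p = 0.00135), to 50.7% of mock. Its other probe set gave -1.12 (SE 0.19, adjusted p = 0.0102). CCNB2, a mitotic cyclin, had 405, 448 and 439 on treated and 727, 596 and 699 on mock arrays, a log2 fold change of -0.64 (SE 0.10, adjusted p = 0.00831). The small CDK-binding proteins CKS1B and CKS2 both lay lower on every treated array. CKS2 had 916, 900 and 847 on treated and 1307, 1263 and 1329 on mock arrays (-0.55, SE 0.07, adjusted p = 0.00275). CKS1B had 781, 794 and 671 against 1003, 906 and 963 (-0.36, SE 0.09, adjusted p = 0.0499), and this call was lost without any one of the 6 arrays. CDK1, the kinase itself, spread widely within the treated group, at 275, 194 and 106 against 296, 242 and 213 in mock cells, and did not pass (-0.48, SE 0.31, adjusted p = 0.483). CDC25B, a phosphatase that activates CDK1, had 1316, 1206 and 1357 on treated and 1210, 1322 and 1142 on mock arrays (0.08, SE 0.08, adjusted p = 0.683). Its groups overlapped, as did those of the related CDC25C (-0.37, SE 0.29) and of CCNF, a cyclin that acts in a ubiquitin ligase (-0.22, SE 0.22). CDC25C lay under the signal limit.

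Of 9 genes of the spindle checkpoint and of anaphase release, 6 fell, 3 did not pass and 8 were lower on every treated array than on any mock array. MAD2L1, the checkpoint protein that binds CDC20, had 294, 229 and 220 on treated and 543, 329 and 480 on mock arrays (-0.84, SE 0.20, adjusted p = 0.0410). The lowest mock array was the second; the call was kept without it (adjusted p = 0.0121) and lost without any one of the other 5 arrays (0.0559 to 0.132). CDC20, which activates the anaphase-promoting complex, had 378, 385 and 438 against 636, 759 and 755 (-0.84, SE 0.10, adjusted p = 0.00297). PTTG1, or securin, had 1355, 1237 and 1363 against 2122, 2518 and 2343 (-0.82, SE 0.08, adjusted p = 0.00106), with arrays of each group close together. TTK, the checkpoint kinase MPS1, had 138, 134 and 113 against 229, 182 and 284 (-0.83, SE 0.20, adjusted p = 0.0461). TTK, BUB1B and AURKB each kept the call in 1 of the 6 fits that left out an array. BUB1B, or BUBR1, also fell (-0.69, SE 0.15), as did UBE2C, the ubiquitin-conjugating enzyme of the complex (-0.52, SE 0.07). The kinase BUB1 (-0.54, SE 0.17, adjusted p = 0.112) and ESPL1, or separase (-0.39, SE 0.12, adjusted p = 0.100), did not pass, although their groups did not overlap. BUB3, the partner of BUB1 and BUBR1, stood at the other side of 0, with 1849, 1863 and 1651 on treated and 1670, 1443 and 1592 on mock arrays (0.19, SE 0.08, adjusted p = 0.243), and its groups overlapped.

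Of 8 measured genes of other mitotic kinases and their partners, 5 fell and 3 did not pass. PBK, a mitotic kinase, had 220, 262 and 221 on treated and 552, 416 and 547 on mock arrays. This was the second lowest log2 fold change of the 46 genes (-1.10, SE 0.14, adjusted p = 0.00336), to 46.6% of mock. BIRC5, or survivin, a subunit of the chromosomal passenger complex, had 309, 326 and 238 against 550, 548 and 553 (-0.93, SE 0.13, adjusted p = 0.00461). Its mock arrays were nearly equal and the third treated array was the lowest. PLK1, a kinase of mitotic entry and spindle assembly, had 227, 185 and 178 against 329, 380 and 319 (-0.81, SE 0.14, adjusted p = 0.0134). AURKB, the kinase of the passenger complex, had 190, 188 and 201 against 315, 330 and 255 (-0.63, SE 0.14, adjusted p = 0.0340). TPX2, the spindle protein that activates Aurora A, fell by 0.44 (SE 0.08). The Aurora kinases thus lay on opposite sides of 0. AURKA, the centrosomal Aurora kinase, had 1536, 1545 and 1524 on treated arrays and 1343, 1307 and 1293 on mock arrays. Its groups did not overlap, but the difference did not pass (0.22, SE 0.06, adjusted p = 0.0670). It passed as higher with the stricter signal filter (adjusted p = 0.0357) and with a constant added before log2 (0.0493), and its other probe set gave 0.25 (SE 0.09, adjusted p = 0.151). NEK2 (-0.61, SE 0.19) and TACC3 (-0.60, SE 0.29), which act at the centrosome and spindle, did not pass.

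Of 7 measured genes of kinesins, the spindle midzone and cytokinesis, 4 fell and 3 did not pass. RACGAP1, a subunit of centralspindlin, had 284, 308 and 268 on treated and 523, 665 and 509 on mock arrays (-0.97, SE 0.13, adjusted p = 0.00343). KIF11, the kinesin that separates the spindle poles, had 153, 140 and 133 against 290, 252 and 266 (-0.92, SE 0.14, adjusted p = 0.00804). PRC1, which bundles midzone microtubules, had 484, 525 and 406 against 833, 761 and 819 (-0.78, SE 0.11, adjusted p = 0.00452). In these genes every treated array was well below every mock array. KIF20A, a kinesin of cytokinesis, had 323, 347 and 273 against 474, 524 and 484 (-0.66, SE 0.11, adjusted p = 0.0127). KIF4A, a chromosome-binding kinesin, had -0.67 (SE 0.21), near that of KIF20A, but its mock arrays spread from 207 to 366 and it did not pass (adjusted p = 0.107). KIF2C, which depolymerises microtubules, had -0.25 (SE 0.12) and did not pass either. KIF23, the partner of RACGAP1 in centralspindlin, was dim, at 105, 109 and 84.0 on treated and 123, 60.3 and 65.2 on mock arrays (0.33, SE 0.32, adjusted p = 0.666), and its groups overlapped.

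Of 5 measured genes of the centromere and kinetochore, 3 fell and 2 did not pass. ZWINT, a kinetochore protein, had the lowest log2 fold change of the 46 genes. Its signals were 434, 420 and 459 on treated and 1013, 777 and 1157 on mock arrays (-1.15, SE 0.14, adjusted p = 0.00252), to 45.2% of mock. CENPE, the kinesin of the kinetochore, had 127, 157 and 144 against 225, 307 and 276 (-0.91, SE 0.17, adjusted p = 0.0162). SPAG5, or astrin, had 161, 152 and 171 against 262, 268 and 275, tight in both groups (-0.74, SE 0.13, adjusted p = 0.0139). NDC80, which binds microtubules at the kinetochore, had a value of like size (-0.90) but a wide spread (SE 0.36) and did not pass. Its lowest mock array, at 111, overlapped the treated arrays. CENPF, a large protein of the outer kinetochore, had -0.18 (SE 0.19).

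The remaining groups held fewer called genes. In spindle assembly, 1 of 4 fell: NUSAP1, a microtubule-binding protein, had 532, 515 and 646 on treated and 838, 872 and 789 on mock arrays (-0.57, SE 0.10, adjusted p = 0.0144). HMMR, TROAP and the importin KPNA2 had -0.39 (SE 0.11), -0.11 (SE 0.20) and -0.10 (SE 0.09) and did not pass. In chromosome structure and chromatin, 1 of 5 fell: SMC4, a condensin subunit, had 559, 595 and 471 against 736, 683 and 823 (-0.47, SE 0.11, adjusted p = 0.0454), and lost its call without any one of the 6 arrays. SMC2, its partner in condensin, was dim and lay on the other side of 0, at 74.4, 94.5 and 92.5 on treated and 90.2, 61.8 and 69.4 on mock arrays (0.25, SE 0.27). H2AZ1, a histone variant, had 1940, 2470 and 1462 against 3527, 2408 and 3341 (-0.67, SE 0.20, adjusted p = 0.0893), with an overlap between the second treated and the second mock array. It passed as lower with either signal filter. TOP2A, the topoisomerase that untangles chromosomes, and MKI67, the Ki-67 proliferation marker, had -0.37 (SE 0.12) and -0.19 (SE 0.10) and did not pass.

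Leaving out each array in turn, 13 of the 24 kept their call every time, and all 24 kept their sign under every setting that gave them a value. PLK1 kept its call in 5 of the 6 fits that left out an array, TPX2 in 4, and SPAG5, CENPE and NUSAP1 each in 3. CCNA2 kept its call in all 15 alternatives, and KIF11 in the 14 that gave it a value, since the 60th percentile filter removed it.

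A further 95 genes with roles in G2 and mitosis, grouped by complex, were listed for comparison, and 45 were on the 12 h array. Of these 6 fell, 1 rose and 38 did not pass, beside 3.25% lower and 3.09% higher over all named genes. The median log2 fold change was -0.17, with 31 values below 0 and 14 above. Of 8 genes of the anaphase-promoting complex and its co-factors, 1 fell, UBE2S, the chain-extending ubiquitin-conjugating enzyme (-0.70, SE 0.15, adjusted p = 0.0327), and the core subunit CDC27 did not pass (-0.35, SE 0.09, adjusted p = 0.0503). None of 6 cohesin genes passed at adjusted p below 0.05 in limma's test, and 5 of the 6 lay above 0 (median 0.32). At an unadjusted p below 0.05, SMC1A was lower (-0.30, SE 0.09) and PDS5B higher (1.49, SE 0.50). None of 8 G2 kinases, phosphatases and checkpoint genes passed, with CDC25A lower at an unadjusted p below 0.05 (-1.51, SE 0.45). PDS5B and CDC25A were under the signal limit on every array. Of all 7713 named genes, 1508 were at an unadjusted p below 0.05. The condensin subunit NCAPG fell (-0.76, SE 0.18, adjusted p = 0.0454). Of 5 centromere and passenger genes, CENPI fell from a dim signal, with 7.03, 7.08 and 16.1 on treated and 66.5, 39.6 and 87.0 on mock arrays, all under the signal limit, so the size of its change is uncertain. Of 10 genes of spindle, tubulin and centrosome, STMN1, or stathmin (-0.70, SE 0.15), and TUBB4B, a beta tubulin (-0.47, SE 0.10), fell.

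The 7 measured genes of MuvB, B-MYB, the pocket proteins and E2F4 and E2F5 held 1 rise and 1 fall. RBL2, or p130, the pocket protein of the DREAM complex in resting cells, had 420, 521 and 645 on treated and 268, 206 and 276 on mock arrays, a rise of 1.07 (SE 0.18, adjusted p = 0.0102). MYBL2, or B-MYB, which binds MuvB later in the cycle, had 109, 74.0 and 124 against 190, 236 and 186 (-1.02, SE 0.23, adjusted p = 0.0376). The groups of both genes were apart. E2F4, TFDP1 and RBBP4 had -0.11 (SE 0.12), -0.21 (SE 0.15) and 0.03 (SE 0.17), and RBL1 and E2F5, both dim, had -0.80 (SE 0.47) and -1.14 (SE 0.39). None of these 5 passed.

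The single pair of arrays at 6 h allows no test and gives no measure of replicate spread. The 54 genes lay on both sides of 0, with 25 higher and 29 lower on the treated array and a median log2 ratio of -0.04, against -0.03 over all 11963 named genes. The lowest was NEK2, at 538 on the treated and 816 on the mock array (-0.60), the single gene past 1.5-fold. Over named genes at least as bright as the dimmest of the 54, 3.61% were 1.5-fold or more lower and 2.83% higher; over all named genes these shares were 13.9% and 10.5%. The highest was TROAP, at 703 and 484 (0.54).

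Centring each array on its median moved the median of all named genes from -0.03 to 0.08 and that of the 54 genes to 0.07, with 35 of 54 then above 0, so directions near 0 at 6 h depend on scaling. TROAP became 0.65 with centring and 0.64 with quantile normalization, past 1.5-fold, and NEK2, no longer past it, became -0.49 and -0.51. H2AZ1 (0.53) and KPNA2 (0.43), which had high signals, became 0.09 and -0.01 with quantile normalization. With centring H2AZ1 became 0.65, also past 1.5-fold, and KPNA2 0.55. As deposited, another probe set gave 0.42 for H2AZ1 and -0.003 for KPNA2.

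By role, cyclins, CDK1 and its regulators had a median of 0.17 with 5 of 9 above 0, with CDK1 at 2628 and 2042 (0.36) and CCNA2 at 1439 and 1604 (-0.16). Other probe sets gave 0.001 and 0.12 for CDK1 and -0.24 for CCNA2. Genes of the spindle checkpoint and anaphase release had -0.08, from MAD2L1 at -0.46 to CDC20 at 0.41, with 3 of 9 above 0. Kinesin and cytokinesis genes had -0.12 with 2 of 8 above 0, and KIF11 lowest at -0.45. Genes of chromosome structure and chromatin had -0.23 with 2 of 7 above 0, other mitotic kinases 0.01 with 5 of 9, centromere and kinetochore genes 0.09 with 4 of 6, and spindle assembly genes 0.16 with 3 of 5. The genes that the 12 h array lacked lay between -0.26 and 0.16: CCNB1, the main mitotic cyclin, had 1937 on the treated and 1987 on the mock array (-0.04), and FOXM1, the transcription factor of G2 genes, had 945 and 847 (0.16). CENPA, the histone of the centromere, had 0.07, MELK -0.04, KIF14 -0.14, NCAPH -0.24, HMGB2 -0.24 and DLGAP5 -0.26. None of these 8 was past 1.5-fold.

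Other probe sets of 20 of the genes, 33 in all, had ratios from -0.82 to 1.68. Those past 1.5-fold were one of SMC2 (-0.82), one of CENPF at -0.71 and another at 1.68 from signals of 31.2 and 9.74, and a dim one of BUB1 (1.13). The 3 probe sets of CENPF thus disagreed at 6 h, the brightest at 0.14.

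The 24 genes that fell at 12 h were read at 6 h by the same probe sets. Their log2 ratios ran from -0.46 to 0.41 with a median of -0.03, and 11 lay above 0 and 13 below. With median centring 17 lay above 0, and with quantile normalization 12. Of all 11963 named genes, 5552 lay above 0 as deposited, 6913 with median centring and 6319 with quantile normalization. CCNA2 had -0.16 at 6 h and -0.98 at 12 h, PBK -0.09 and -1.10, ZWINT 0.11 and -1.15, and CDC20 0.41 and -0.84. MAD2L1 and KIF11, at -0.46 and -0.45 at 6 h, had the lowest ratios of the 24. All 24 had been chosen as lower at 12 h. Time, array type and number of arrays differed together, so an effect of time cannot be told apart from them.

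**Figure D4:**
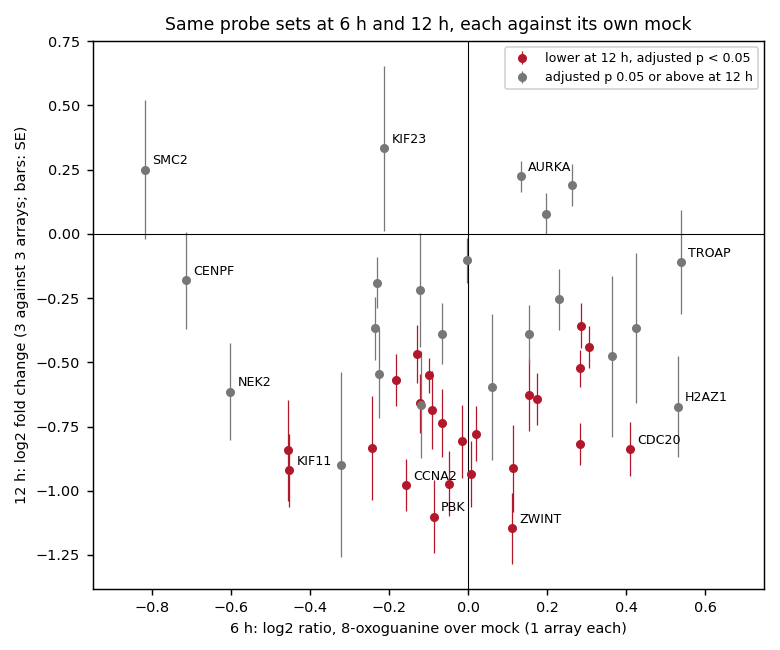
Log2 ratio at 6 h (1 array per treatment) against log2 fold change at 12 h (3 against 3 arrays, bars are standard errors) for the 46 genes, by the same probe set at both times. The 24 genes in red spread from -0.46 to 0.41 along the 6 h axis and lie between -1.15 and -0.36 along the 12 h axis.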

How the data were processed

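Total RNA of MRC5 cells was read on single-colour short-oligonucleotide arrays of different types for 6 h and 12 h. The authors deposited 1 linear intensity per probe set and array, from the MAS5 program named in the submitters' processing notes; its version is not given in the sources used here. Per the labels, cRNA was biotin-labelled. Each array's mean without the lowest and highest 2% was 499.9, so a common scale had been set beforehand. Labels conflict on exposure time, since 1 protocol field has 6 h throughout; the sample's own time field was followed. Log2 of the intensity was taken without further scaling, filter or controls. The 12 h groups were compared over 8746 probe sets by the lmFit and eBayes functions of limma 3.58.1 (R 4.3.3), with a trend on intensity. Tests were two-sided, and Benjamini-Hochberg adjusted p-values over all of them were called at 0.05. No filter was used, so that every listed gene was tested. At 6 h only ratios are given. A gene needed a probe set with 1 annotated symbol (7840 of 8746 at 12 h; 388 had several and 518 none; 19064 of 22215 at 6 h). RefSeq gene tables (GRCh38.p14) changed no symbol. For arrays, their number limits the precision.

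The genes, lists and tests were chosen with earlier results of these data known. Per-array values are given for up to 4 called genes of each role, those with the largest changes, and for genes opposite in direction to most, with CDK1 and H2AZ1 added after their values were seen; of the comparison genes, up to 3 called per role are named. Cohesin and checkpoint counts and genes, CDC27 and the genes beside RBL2 and MYBL2 were added after their values were seen. Genes that did not pass, and 6 h genes within 1.5-fold, are named by role. The limma step was tested on simulated data. Alternatives were median centring, quantile normalization, filters at the 40th and 60th percentile, a constant (the 20th percentile of signals) before log2, no intensity trend, replicate block, averaging the probe sets of a gene, and dropping each array in turn. A planned protein motif search was not run.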

Additional observations from a re-analysis of the deposited data

Results flagged for a closer look

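Among the 24 genes lower at 12 h, 10 had a 6 h log2 ratio above 0 under each scaling (as deposited, median centring, quantile normalization). This sign was opposite to 12 h, where all 24 genes had every treated array below every mock array. The 6 h ratios were 0.41 for CDC20, 0.31 for TPX2, 0.28 for each of CKS1B, UBE2C and PTTG1, 0.17 for CCNB2, 0.15 for AURKB, 0.11 for CENPE, 0.11 for ZWINT and 0.0080 for BIRC5. Other probe sets of BIRC5 disagreed in sign at 6 h, with -0.20 and 0.41. Ratios above 0 were also frequent among genes at large. As deposited, 11 of the 24 genes lay above 0 at 6 h, beside 5552 of all 11963 named genes. After centring the counts were 17 and 6913, and after quantile normalization 12 and 6319. Whether the 10 genes exceed the share among all named genes under each scaling was not tested. The 6 h ratios rest on 1 array per treatment, and whether the 2 times differ was not tested.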

How the results depend on the processing

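The 24 lower genes kept their sign under every alternative that gave a value, and 13 kept their call whichever array was left out. Without an intensity trend 68 probe sets passed, 30 lower and 38 higher, and 3 of the 46 genes. With a replicate block 337 passed, 164 lower and 173 higher, and 18 of the genes; the numbers did not pair the samples (correlations of deviations 0.08, -0.15 and -0.05). Leaving out 1 array gave 233 to 424 probe sets (125 to 214 lower, 108 to 220 higher), 14 to 19 genes and medians of -0.60 to -0.53. In all other alternatives 20 to 25 genes were lower. With the filters these were 25 of 43 at the 40th percentile and 20 of 28 at the 60th, beside 6.65% and 10.3% of all probe sets kept. The 40th percentile filter without an intensity trend gave 23 of 43, beside 4.50%. In those with no filter the counts were of 46 genes, beside 3.21% to 3.32% lower over everything tested. AURKA was the 1 higher gene with the 60th percentile filter and with the constant, where the median was -0.53. TROAP ranged from -0.35 to 0.064, reversed without treated replicate 1. At 6 h the genes' median was 0.075 with centring, -0.010 with quantile normalization and -0.010 with probe sets averaged; 2, 1 and 0 genes were then 1.5-fold higher and 0 lower in each. The causes were not tested. The number of arrays limits the precision, and values under the signal limit of 93.9 are the least certain.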

Other observations

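The mock arrays of the 2 times differed at these genes. By the same probe sets, all 46 genes had a higher signal on the 6 h mock array than the mean of the 12 h mock arrays. The median ratio was 2.62, from 1.23 for PTTG1 to 8.87 for KIF23, with 8.15 for CDK1, 4.64 for TOP2A, 4.61 for MAD2L1 and 3.21 for CCNA2, and 33 of 46 (71.7%) were 2-fold or more higher. Over all 7713 named genes the median ratio was 1.04 and 14.2% were 2-fold or more higher. The array types were scaled separately, and array type, culture and time cannot be told apart.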
